A study of Homo sapiens with 6 samples.

Results

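R-loop peaks that lay outside genes and were found in proliferating IMR90 fibroblasts alone are described here. They were chosen by the deposited peak positions themselves: a peak of the proliferating list, on chromosomes 1 to 22 and X, that shared no base with any senescent or quiescent peak, overlapped no protein-coding or lncRNA gene and lay over 1000 bp from every such gene. The rule found 13332 peaks, out of 24466 proliferating peaks outside genes, 101607 proliferating peaks and 196739 peaks in all 3 lists. The other 11134 proliferating peaks outside genes overlapped a senescent or quiescent peak and are called partnered peaks. IMR90 is a fibroblast line from human embryonic lung. All cells were labelled wild type and grown at 2% oxygen, and they were senescent after ectopic expression of Ras, quiescent after starvation, or proliferating with a control vector. Each state had 1 library made with an RNase H fusion of micrococcal nuclease (RH-MNase); the GST-MNase libraries of the same states are not analysed here. Which form of Ras was expressed is not stated in the labels.

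An R-loop forms when RNA anneals to its template DNA and leaves the opposite DNA strand unpaired. Such structures are known at transcribed DNA, often where the displaced strand is rich in G, and also where short RNAs made by RNA polymerase III leave their genes. In MapR a catalytically inactive RNase H brings the nuclease to the hybrid, which cuts nearby chromatin loose for sequencing, so a peak outside an annotated gene marks released chromatin and does not by itself show which RNA was present.

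No genome was at hand from which the letters of the peaks could be read. The sequences that can be shown are those of the microRNA genes under these peaks, taken from RefSeq (GRCh38.p14), and they are given because they are the only letters known to lie under or beside proliferating-only peaks. Of the 346 microRNA genes that lay over 1000 bp from other genes, 31 were under a proliferating peak, and 7 of these were under a proliferating-only one. The mature RNAs of these 7 genes are printed 5′ to 3′ with the seed, bases 2 to 8, in capitals. 
hsa-miR-6068: cCUGCGAGucuccggcggugg
hsa-miR-146b-5p: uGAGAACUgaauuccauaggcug
hsa-miR-146b-3p: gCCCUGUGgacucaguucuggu
hsa-miR-8052: cGGGACUGuagagggcaugagc
hsa-miR-6076: aGCAUGACagaggagaggugg
hsa-miR-6859-5p: gAGAGGAAcaugggcucaggaca
hsa-miR-6859-3p: uGACCCCCaugucgccucuguag
hsa-miR-4634: cGGCGCGAccggcccgggg
hsa-miR-4478: gAGGCUGAgcugaggag
No seed occurred in more than 1 of these 9 RNAs. The hairpins of MIR146B, on the plus strand at chr10:102436512-102436584, and MIR4634, on the plus strand at chr5:174751734-174751787, are printed with their mature parts in capitals, as the member with a known role and the member richest in G and C.
MIR146B hairpin: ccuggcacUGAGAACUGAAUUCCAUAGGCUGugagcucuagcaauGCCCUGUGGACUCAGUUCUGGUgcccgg
MIR4634 hairpin: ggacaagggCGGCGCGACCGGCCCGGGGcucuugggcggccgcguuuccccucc

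The miR-146b hairpin lay whole within a proliferating-only peak of 426 bp with a score of 16. miR-146b restrains inflammatory signalling through adaptor proteins of the Toll-like and interleukin receptors. The nearest senescent peak began 923 bp away and the nearest quiescent peak 4174 bp away, so the senescent list was not empty around this gene. The MIR4634 hairpin was 79.6% G and C and lay in a peak of 383 bp with a score of 15, 20622 bp from MSX2, a homeobox gene. Its nearest senescent peak was 25509 bp away. MIR6068, 1681 bp from the forkhead gene FOXD3, was 71.7% G and C and its peak had a score of 12. MIR6068 is on the minus strand at chr1:63326925-63326984. MIR8052, at chr11:130666735-130666803 on the plus strand, lay in the widest of these peaks, of 1011 bp with a score of 19, and the nearest senescent peak was 5383 bp away. MIR6859-3, at chr15:101973524-101973591 on the plus strand, lay in a peak of 430 bp with a score of 19, and MIR4478, at chr9:122120082-122120167 on the minus strand, in a peak of 646 bp with a score of 18. Senescent peaks lay 956 bp and 1345 bp from these peaks, so senescent signal was close to 3 of the 7 genes, the miR-146b gene included. The peak of 195 bp at MIR6076, on the plus strand at chr14:49966399-49966511, had the highest score of the 7, 24. It covered 90 of the hairpin's 113 bases and did not reach the mature sequence. The median G and C content was 63.8% over the 7 hairpins, against 47.5% over the 268 hairpins apart from genes whose sequence was in the table and 52.1% over all 1562. With 7 hairpins this is a description. The content of the hairpins under partnered peaks was not computed, so a high content is not shown to be particular to proliferating-only peaks. The other 24 microRNA genes apart from genes and under a proliferating peak had it in partnered peaks, so 24.1% (7 of 29) of the proliferating peaks over microRNA genes were proliferating-only (95% Wilson interval 12.2 to 42.1), below the 54.5% of all proliferating peaks outside genes. All intervals given here cover counting error only.

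The lists differed in length and width before any position was compared. The senescent list held 85405 peaks over 54.0 Mb, the quiescent list 9727 over 4.12 Mb and the proliferating list 101607 over 85.2 Mb, on the chromosomes used. Outside genes lay 21830 senescent peaks (25.6%), 1047 quiescent peaks (10.8%) and 24466 proliferating peaks (24.1%). The score is the authors', its scale is not stated, and it was used only to rank or describe peaks within a list. Read depth is unknown, and with 1 library a state no difference between states has a replicate check; states and libraries cannot be told apart. As a look at the labelled cell type, the proliferating list had a peak within 1000 bp of an end of 9 of 12 lung fibroblast markers, among them COL1A1, COL1A2, FN1 and VIM, and lacked one at THY1, POSTN and FAP. It also had one at 6 of 12 markers of other cells, among them EPCAM and SFTPC of epithelium; a peak is not a measure of expression.

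Proliferating-only peaks made up 54.5% (53.9 to 55.1) of the proliferating peaks outside genes. The share was 37.7% in the upper part of the proliferating list, from its median score up, and 32.2% with that list shortened by score to the length the senescent list covered. Across all locations 49.9% of proliferating peaks had no partner, and since the rule used this contrast nothing is read from the difference. The share without a partner was 28.2% at gene ends, the 1000 bp on either side of an annotated end, and 57.6% inside genes. The partnered peaks outside genes overlapped a senescent peak alone in 10289 cases (42.1% of all proliferating peaks outside genes), both other lists in 789 (3.22%) and a quiescent peak alone in 56 (0.229%). The quiescent list therefore removed few peaks that the senescent list had not removed. Read the other way, 10086 senescent peaks outside genes (46.2%) had no partner, where 34.2% of senescent peaks at all locations had none, and 11 quiescent peaks did.

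Proliferating-only peaks were narrow and of modest score. Their median width was 382 bp (377 to 386), against 685 bp (673 to 695) for partnered peaks, and they ran from 195 to 2655 bp. Senescent-only peaks outside genes were narrower still, with a median of 340 bp (336 to 343). The median score of proliferating-only peaks was 17, against 25 for partnered peaks of the same list, and their scores ran from 10 to 104. Proliferating-only peaks made up more peaks than the partnered set but less DNA, 6.06 Mb or 7.12% of the length the proliferating list covered, against 9.47 Mb or 11.1%. Peaks wider than 1000 bp were 5.03% (4.67 to 5.41) of proliferating-only peaks and 28.6% (27.8 to 29.4) of partnered ones. Proliferating-only peaks inside genes had nearly the same size, with a median of 384 bp, and those at gene ends were wider at 446 bp.

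**Figure D1:**
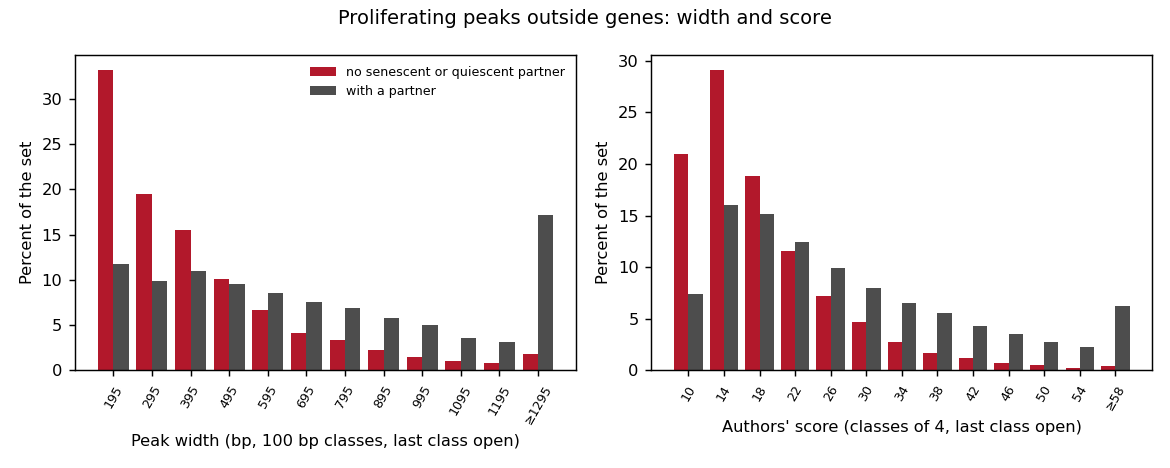
Percent of proliferating-only (red) and partnered (grey) peaks outside genes in classes of peak width in bp (left) and of the authors' score (right), with the last class of each axis open. The red bars stand highest in the narrowest and low-scoring classes, around medians of 382 bp and 17, and the grey bars reach further right, around 685 bp and 25.

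The share without a partner fell with both measures. By score it was 77.2% in the class of 10 to 13, 68.6% at 14 to 17, 59.2% at 18 to 22, 48.4% at 23 to 30 and 26.2% above 30. By width it was 77.9% up to 250 bp, 71.1% from 251 to 400 bp, 59.6% from 401 to 600 bp, 40.4% from 601 to 1000 bp and 17.4% above. Within every score class the share was lower in each wider class. Within width classes it was lower in each higher score class, except that over 1000 bp the lowest score class, with 28 peaks, had 32.1% and the next 36.3%. Since 1 shared base made a partner, a wide peak has more room for an overlap, and how far width by itself moves these shares was not tested. Peaks that were narrow and yet high in score remained mostly without a partner: of 394 peaks of at most 250 bp with a score above 30, 70.3% (65.6 to 74.6) were proliferating-only. Of 2161 peaks over 1000 bp with such a score, 9.07% (7.93 to 10.4) were.

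**Figure D2:**
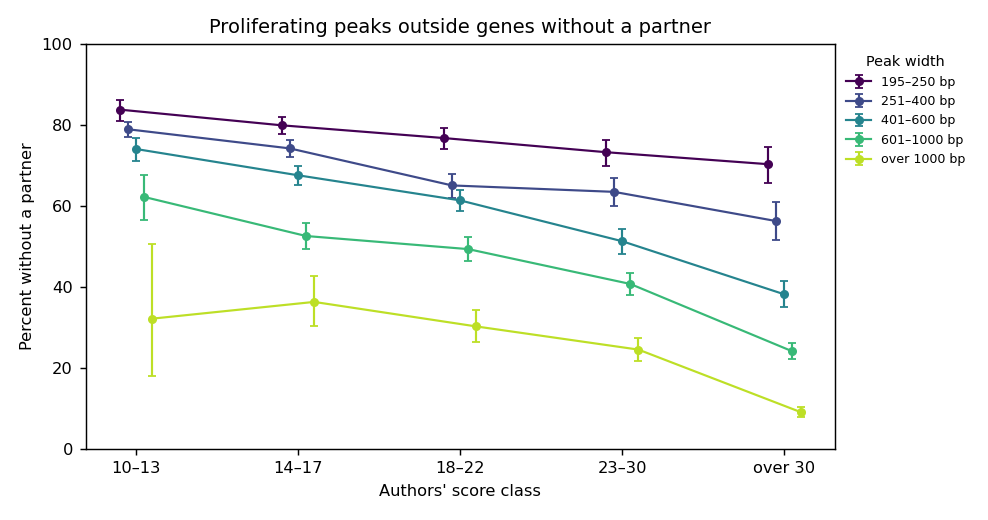
Percent of proliferating peaks outside genes without a senescent or quiescent partner, by class of the authors' score (x axis) and peak width (coloured lines, in bp), with 95% Wilson intervals as bars. The line for the narrowest peaks goes from 83.8% in the lowest score class to 70.3% in the highest, and that for peaks over 1000 bp ends at 9.07%.

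Many of the proliferating-only peaks with the highest scores were such narrow peaks. Above a score of 60 there were 47 proliferating-only peaks with a median width of 453 bp, of which 46.8% were at most 400 bp wide, and 554 partnered peaks with a median of 1214 bp, of which 3.07% were. The top score, 104, belonged to a peak of 254 bp at chr11:130431541-130431794 (GRCh38), 2931 bp from ADAMTS8, which encodes a secreted metalloprotease. A senescent peak lay 1427 bp and another proliferating peak 1419 bp from it. The next scores were 93 for a peak of 228 bp at 3617 bp from GSDMA, a gasdermin gene, and 92 for a peak of 377 bp at chr16:86590710-86591086, 7231 bp from the forkhead gene FOXL1. Scores of 91 to 82 followed near STEAP1B-AS1, LOC124903305, LINC00857, LOC124907969, CS, ELAC2 and LOC100271832. CS encodes citrate synthase and ELAC2 a tRNA 3′-processing endonuclease, and their peaks were 244 and 224 bp wide. Of these 10 peaks, all but the 787 bp peak beside STEAP1B-AS1 were 377 bp wide or less. The peak near LOC124903305, on chromosome 14, lay 278697 bp from any gene, and its nearest quiescent peak was 2747327 bp away.

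The widest proliferating-only peak, of 2655 bp with a score of 22, lay at chr17:79799347-79802001, 2269 bp from CBX8, a Polycomb subunit gene. Peaks of 2641 bp near LINC02783 and PADI1 on chromosome 1, 2613 bp lying 82709 bp from PRICKLE2 on chromosome 3 and 2343 bp lying 70590 bp from PHLDA1 on chromosome 12 were next to it in size. The remaining one of the 5 widest, of 2492 bp at chr6:26309581-26312072, lay in the histone gene cluster 24046 bp from H4C8 and covered the glutamine tRNA genes TRQ-TTG3-1 and TRQ-TTG3-2. Each of these 5 had a senescent peak between 638 and 4048 bp away, so none stood far from senescent signal.

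At the edge of the rule, proliferating-only peaks lay 1001 bp from TXNRD1 (1107 bp wide, score 28), 1003 bp from LINC02205 (297 bp, 20) and 1005 bp from IRF2BP2 (612 bp, 30). Just outside it, peaks without a partner lay 1000 bp from ZNF787 (285 bp, 15), LOC124906123 (195 bp, 16) and LHFPL2 (710 bp, 11). At the other end, the 5 proliferating-only peaks farthest from genes lay 1333867 to 1893050 bp away on chromosomes 14, 15, 10 and 21. Their widths were 195 to 285 bp and their scores 12 to 49, with the highest on chromosome 10. None had a protein-coding gene within 500 kb. A width of 195 bp is the lowest among all proliferating-only peaks. How reads that fit several places were placed is not stated, so the positions of these 5 peaks may be uncertain.

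Proliferating-only peaks stayed near genes, though by definition outside them. The median distance to the nearest protein-coding or lncRNA gene was 11380.5 bp (11063 to 11753), against 10128 bp (9814 to 10423) for partnered peaks and 14586 bp (14031 to 14960) for senescent-only peaks outside genes. A gene lay within 10 kb of 45.9% (45.0 to 46.7) of proliferating-only peaks, 49.7% (48.8 to 50.7) of partnered peaks and 39.7% (38.8 to 40.7) of senescent-only peaks. Proliferating-only peaks were thus somewhat farther from genes than partnered ones and nearer than the senescent-only ones. More than 100 kb from any gene lay 3.52% of proliferating-only and 4.56% of senescent-only peaks. Within score classes the share with a gene within 10 kb was again lower for proliferating-only than for partnered peaks, with differences of -6.69 to -1.51 points (proliferating-only minus partnered); the interval of the difference reached past 0 in the class of 18 to 22. The nearest gene was protein-coding for 52.1% of proliferating-only, 53.6% of partnered and 49.8% of senescent-only peaks and a lncRNA gene for the rest.

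The share without a partner was higher where genes were sparse. With no protein-coding gene within 500 kb, 68.3% (63.7 to 72.5) of 426 proliferating peaks outside genes had no partner. The share was 62.7% with 1 to 2 genes, 58.8% with 3 to 5, 55.3% with 6 to 10, 51.3% with 11 to 20 and 47.7% (46.1 to 49.3) of 3846 peaks with more. Sparse neighbourhoods, of at most 2 genes, exceeded those with over 20 by 16.1 points (Newcombe interval 13.5 to 18.6), and by 7.94 points when a partner had to share 50% of both peaks. The median score was 20 in all but the densest class, where it was 21, while the median width was 427 bp with no gene and 505.5 bp with over 20 genes. The difference was positive within each of the 5 score classes, from 9.50 to 22.5 points, and within each of the 5 width classes, from 5.71 to 21.1 points. The same shares ran in the same direction in the senescent list, from 67.4% with no gene to 34.3% with over 20, a difference of 26.2 points (23.6 to 28.8). The trend was present in both lists.

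**Figure D3:**
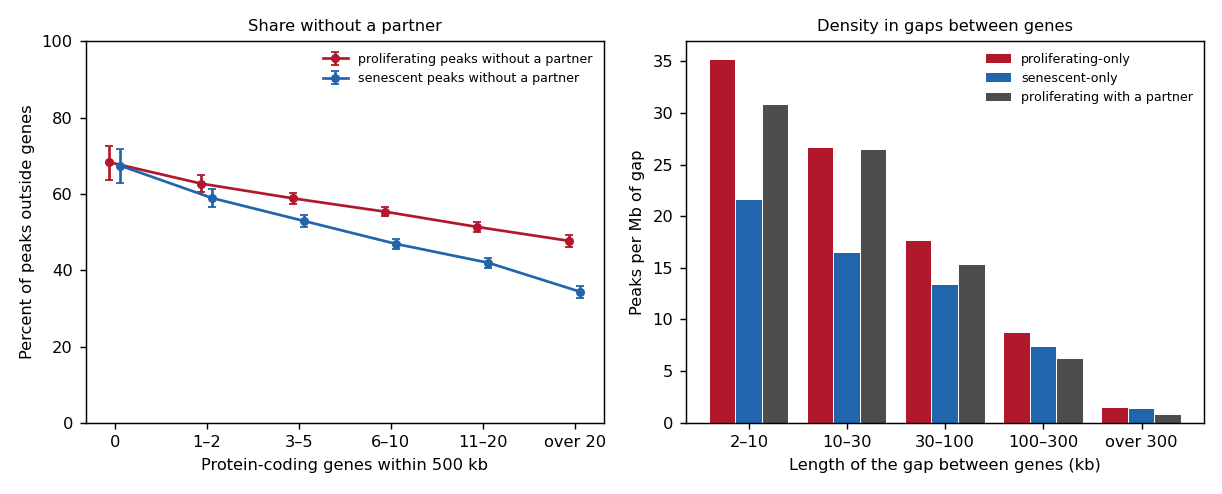
Left, percent of peaks outside genes without a partner against the number of protein-coding genes within 500 kb, for proliferating (red) and senescent (blue) peaks, with 95% Wilson intervals; both lines fall from left to right, to 47.7% and 34.3%. Right, peaks per Mb of gap, for gaps between genes of rising length in kb; proliferating-only peaks (red) are densest in gaps of 2 to 10 kb, at 35.2 per Mb, and thinnest in those over 300 kb, at 1.39.

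Seen per length of DNA, the order was the opposite. Gaps between genes of 2 to 10 kb held 35.2 proliferating-only peaks per Mb of room, those of 10 to 30 kb held 26.6, those of 30 to 100 kb 17.6, those of 100 to 300 kb 8.71 and longer ones 1.39. Partnered peaks ran the same way, with 30.8 per Mb in the shortest gaps and 0.718 in the longest, as did senescent-only peaks with 21.5 and 1.38. Room is the part of a gap over 1000 bp from both genes. Stretches without known sequence or where reads cannot be placed were not taken out of it. How far they lower the densities, by gap or by chromosome, was not tested. Of 21074 gaps 31.0% held at least 1 proliferating-only peak, so these peaks were spread widely: of 2289 bins of 1 Mb with a proliferating peak outside genes 2155 held at least 1. By chromosome, density was highest on 17 (22.5 per Mb) and 19 (18.8), both rich in genes, and lowest on X (2.97). The share without a partner ran the other way, with 62.5% (57.8 to 66.9) on X, 60.4% on 18 and 59.9% on 4, against 48.7% (45.2 to 52.2) on 22, 49.4% on 15 and 49.5% on 19.

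Many proliferating-only peaks had a neighbour, and how many depended on the length of the list. Another proliferating peak of any kind lay within 10 kb of 75.7% (74.9 to 76.4) of them, against 80.8% (80.1 to 81.5) of partnered peaks, and a senescent peak within 10 kb of 69.0%. The 75.7% became 57.6% among proliferating peaks at or above the median score, 51.2% with the list shortened to the senescent covered length and 25.3% with as many peaks in every list. A senescent peak within 1000 bp was present for 18.6%, and within 100 kb for 97.3%, with a median distance of 4359.5 bp. The nearest quiescent peak was at a median of 75104.5 bp. A peak whose nearest proliferating neighbour within 10 kb had no partner was itself without a partner in 55.0% of cases, against 50.8% beside a partnered neighbour, a difference of 4.19 points (2.78 to 5.61). By score class the difference was 2.16 to 6.60 points, with an interval that reached past 0 in the lowest class. Neighbouring peaks can be parts of the same signal, so they are not independent.

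When proliferating-only peaks at most 10 kb apart were chained, they formed 9305 runs, of which 6797 were a lone peak, 1644 held 2, 710 held 3 to 4 and 154 held at least 5. The longest run, by number of peaks, lay over the 5S ribosomal RNA genes. It spanned chr1:228608414-228643001 and held 24 proliferating-only peaks, with no partnered, senescent or quiescent peak among them. The nearest senescent peak was 91912 bp from its nearest member, and the gene RHOU began 1645 bp beyond its end. The 5S genes encode the small RNA of the large ribosomal subunit that RNA polymerase III transcribes from a tandem array. The array has 17 RefSeq genes of 121 bp, spaced 2241 bp apart at the median, from position 228610266 to 228646158. Over these 35.9 kb lay no senescent peak, no quiescent peak and 23 proliferating peaks, so none of the 23 had a partner. Of them 22 lay outside genes, and the other overlapped RHOU and so fell outside the rule.

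Of the 17 genes, RNA5S2, RNA5S5, RNA5S6, RNA5S7, RNA5S11 and RNA5S12 were themselves under a proliferating-only peak, with scores of 18, 25, 15, 26, 27 and 30. The other genes lay between peaks, and the median distance from a gene to the nearest proliferating-only peak was 28 bp. The 24 peaks of the run were 195 to 1098 bp wide with scores of 12 to 30, so no copy stood out. The copies of the array are nearly identical. How reads that fit several copies were placed is not stated in the labels, and so which copy carried the signal is uncertain, in each list alike. Scores over the array were modest: with the proliferating list shortened by score, the array held 9 proliferating-only peaks at or above the list's median score, 4 once the list covered no more than the senescent one, and 0 once every list had as many peaks as the quiescent one. Merging peaks within 1000 bp left 12, and with every gene class counted as a gene there were 0, since the 5S genes then count as genes.

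**Figure D4:**
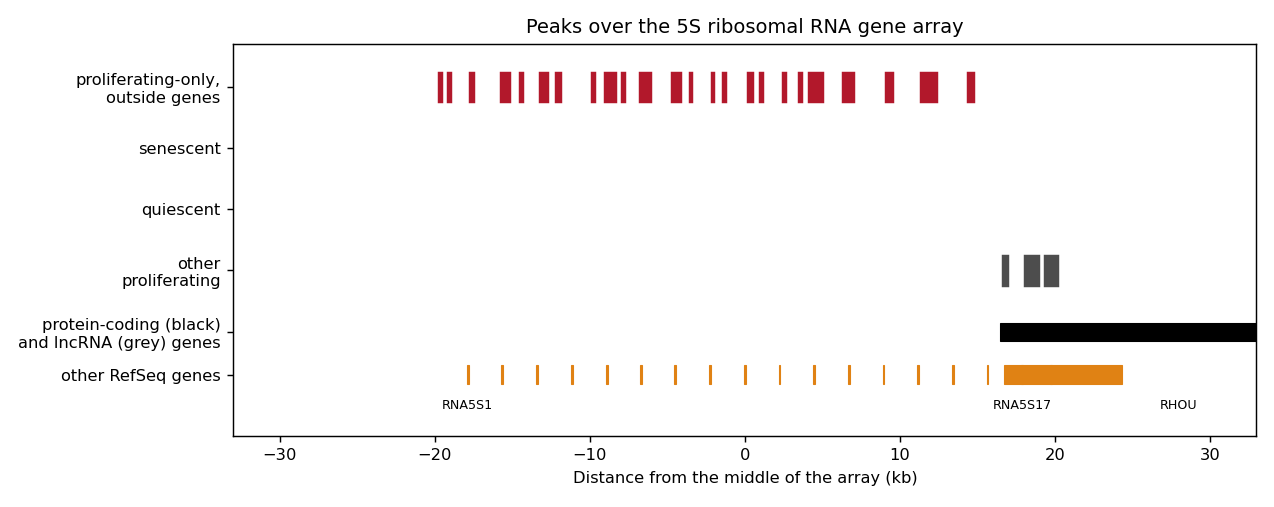
Positions of proliferating-only, senescent, quiescent and other proliferating peaks (rows from the top) and of RefSeq genes over the 5S ribosomal RNA array, in kb from its middle; orange marks are the 5S genes and, at the right, pseudogenes within RHOU. The 24 proliferating-only peaks are spaced along the array from just left of it to 1645 bp before RHOU, and the senescent and quiescent rows are empty.

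Ribosomal RNA genes elsewhere did have senescent peaks. Of 21 proliferating peaks outside genes over any rRNA gene 6 were proliferating-only, those at the 5S genes (28.6%). Of 29 rRNA genes apart from other genes 12 were under a senescent peak. The 29 include 5S genes of the array, none of which was under a senescent peak. All 12 therefore lay elsewhere, and the share among rRNA genes elsewhere was higher than 12 of 29.

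RNA polymerase III also makes tRNAs, and many of their genes lie in clusters. Of the 274 tRNA genes over 1000 bp from protein-coding and lncRNA genes, 35 were under a senescent peak, 2 under a quiescent peak and 103 under a proliferating peak; of the last, 42 were under a proliferating-only peak and 61 under a partnered one. Of all proliferating peaks outside genes that covered a tRNA gene, 32 of 78 (41.0%, 30.8 to 52.1) were proliferating-only, which is below the 54.5% of all proliferating peaks outside genes. These 32 peaks were wide for proliferating-only peaks, with a median of 1036.5 bp and a range of 195 to 2492 bp, and had a median score of 26.5. The 54.5% is over peaks of all sizes. Among all proliferating peaks outside genes with scores of 23 to 30, 40.7% of those 601 to 1000 bp wide were proliferating-only. For wider ones of that score class it was 24.5%. The tRNA share was not set against peaks of like size, so a low share for their size is not shown. Tests of the difference from 54.5% were not made, since peaks of 1 library are no replicates.

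By chromosome, 19 of the 42 genes were on 6 and 16 on 1, which hold 108 and 71 of the 274. The highest score was 65, for a peak of 1630 bp over the valine tRNA gene TRV-AAC1-4 at chr5:181217183-181218812, 4468 bp from TRIM41. Next came a peak with a score of 48 over TRE-CTC1-5, TRG-TCC2-5 and TRD-GTC2-5, genes for glutamate, glycine and aspartate tRNAs on chromosome 1, and one of 43 over the serine tRNA gene TRS-AGA2-3 on chromosome 6. The chromosome 1 peak belongs to a run at chr1:161440205-161472074 of 8 proliferating-only peaks, with no partnered, senescent or quiescent peak in it. It held 23 tRNA genes, 11 of them under a peak. This run was picked as the run with the most tRNA genes under peaks, after its values were seen. The copies in it are alike, and the limit on reads that fit several copies applies to it too.

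Other small RNA genes followed with smaller numbers. Of 82 small nuclear RNA genes apart from other genes, 3 were under a senescent peak, none under a quiescent peak and 30 under a proliferating peak, 10 of these proliferating-only. By peaks, 10 of 29 were proliferating-only (34.5%, 19.9 to 52.7), below the 54.5% of all proliferating peaks outside genes. The 10 had a median width of 877 bp and a median score of 32.5, and this share was not set against peaks of like size either. The small nuclear RNAs are the RNA cores of the spliceosome. The highest of them had scores of 55, 41 and 40, over LOC124904143, LOC124904135 and LOC124904140, which lie together on chromosome 17 beyond CCDC200. RNVU1-31 and RNVU1-18, variant U1 genes on chromosome 1, had peaks of 1444 bp (score 36) and 2086 bp (score 33), and the nearest senescent peak to the peak of RNVU1-18 was 74278 bp away. The limit on reads that fit several copies applies here too, so peaks over such genes may not be assignable to 1 copy. RNY5, a Y RNA gene, lay under a peak of 2028 bp with a score of 42. The senescent counts of these classes come from a list with fewer and narrower peaks, which moves with them; its part in the difference was not tested.

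Pseudogenes had shares closer to that of all proliferating peaks outside genes. Of 582 proliferating peaks over pseudogenes 302 (51.9%, 47.8 to 55.9) were proliferating-only, and of 922 over transcribed pseudogenes 468 (50.8%, 47.5 to 54.0). Among the pseudogenes not listed as transcribed, the highest score was 55, for a peak of 1038 bp over RN7SKP11, a 7SK RNA pseudogene near CDK17. In all 877 proliferating-only peaks (6.58%, 6.17 to 7.01) covered a gene of some other RefSeq class, against 837 partnered peaks (7.52%, 7.04 to 8.02).

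Immune receptor loci, whose gene segments are joined in lymphocytes, are listed as locus entries, and their segments form a separate class. The loci held 75 proliferating-only peaks of 101 proliferating peaks outside genes (74.3%, 65.0 to 81.8, against 54.5% over all proliferating peaks outside genes). This share was not set against peaks of like width, score or gene density, so a high share for such peaks is not shown. Over the segments themselves 11 of 18 were proliferating-only (61.1%, 38.6 to 79.7), an interval that includes the 54.5%. Of 498 segments apart from other genes, 16 were under a proliferating peak and 21 under a senescent peak. IGL, the immunoglobulin lambda locus on chromosome 22, had 29 proliferating-only, 11 partnered and 24 senescent-only peaks. TRB, the T cell receptor beta locus on chromosome 7, had 21, 8 and 7, TRA on chromosome 14 had 13, 4 and 6, and IGK on chromosome 2 had 10, 1 and 3. TRG on chromosome 7 had 2, 2 and 5, so the immune loci differed among themselves. IGH had 0, 0 and 2 over 1293 kb, so it held no proliferating peak outside genes and gave no share. The highest scores there were 62 in IGL and 43 in TRB and TRA. Proliferating-only peaks lay over the antisense RNA genes TRAF3IP2-AS1 (scores 42 and 19), APOA1-AS (28) and HTT-AS (22 and 18). Of the 8 proliferating peaks over this class 7 had no partner (87.5%, 52.9 to 97.8, against 54.5% over all proliferating peaks outside genes). The 7 lay over 4 genes, so they are not independent, and the interval includes the 54.5%.

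The second run of the list, of 17 proliferating-only peaks at chr22:42742427-42786610, lay in the 75.2 kb gap between A4GALT, which encodes a glycolipid galactosyltransferase, and ARFGAP3, an Arf GTPase-activating protein gene. Its scores were 12 to 56, and 5 senescent peaks and 1 partnered peak lay in it. A run of 12 lay between SRRM1, a splicing coactivator gene, and CLIC4 at chr1:24675567-24740075, with 9 senescent and 8 partnered peaks, and a run of 11 beside SCARB1, the HDL receptor gene, at chr12:124715263-124747712. These runs differed from that over the 5S genes in having other states' peaks between the proliferating-only ones.

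The third, of 13 peaks at chr16:86350134-86399340 between the lncRNA genes LINC00917 and FENDRR, belongs to a wider field around FOXF1. FOXF1 is a forkhead factor of lung mesenchyme, FENDRR is transcribed next to it, and FOXC2 and FOXL1 are forkhead genes beyond. The bin at 86 to 87 Mb of chromosome 16 held more proliferating-only peaks than any other, 62 of 110 proliferating peaks outside genes (56.4%, 47.0 to 65.3), against 54.5% over the genome. The same bin held 63 senescent peaks outside genes, of which 13 had no partner. Within 100 kb, FOXL1 had 12 proliferating-only peaks and FOXC2 11; the genes are neighbours, so their windows overlap. This bin and those named after it were picked after their values were seen.

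**Figure D5:**
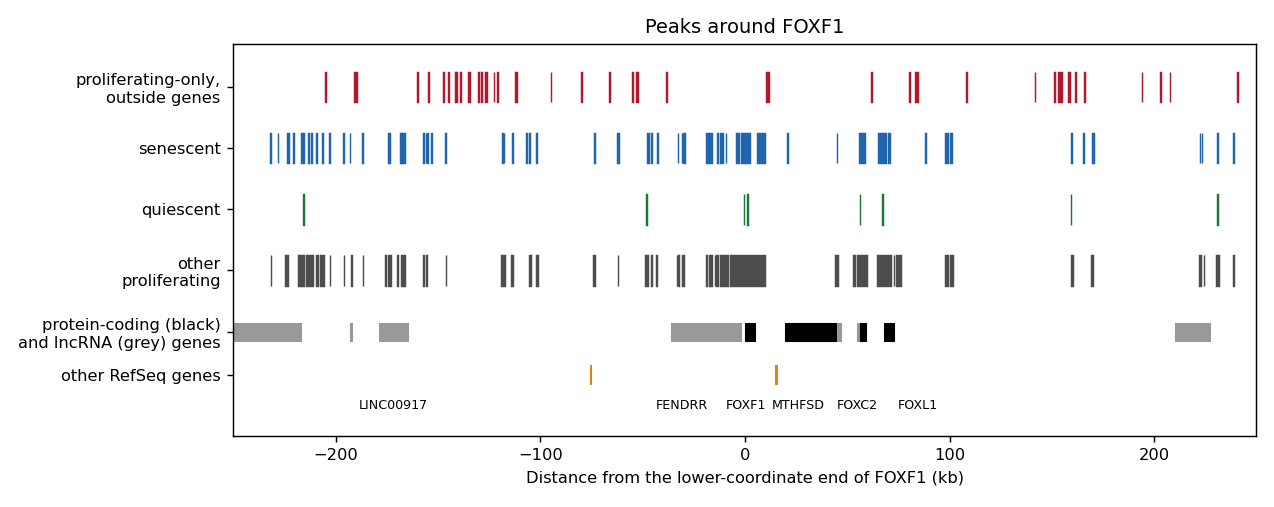
Positions of proliferating-only, senescent, quiescent and other proliferating peaks (rows from the top) and of genes around FOXF1 on chromosome 16, in kb from the lower-coordinate end of FOXF1. Proliferating-only peaks cluster left of FENDRR, where 13 form a run, and recur to the right of FOXL1; senescent peaks lie between them in both places.

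The next bins by number were on chromosome 11 at 69 to 70 Mb, with CCND1 and the FGF19, FGF4 and FGF3 genes (45 of 98, 45.9%), and on chromosome 1 at 16 to 17 Mb (42 of 87, 48.3%). Both shares were below the 54.5% over the genome, and the chromosome 11 bin also held 36 senescent-only peaks. Then came chromosome 2 at 120 to 121 Mb (38 of 68, 55.9%) and chromosome 7 at 1 to 2 Mb (38 of 60, 63.3%). Chromosome 2 at 234 to 235 Mb (37 of 51, 72.5%) and chromosome 1 at 228 to 229 Mb, with the 5S array (37 of 45, 82.2%), followed. The share without a partner was highest, among the 585 bins with at least 15 proliferating peaks outside genes, on chromosome 4 at 176 to 177 Mb, where all 15 were proliferating-only (79.6 to 100) and 5 senescent peaks lay elsewhere in the bin. VEGFC, a lymphatic growth factor gene, is in that bin. It was lowest on chromosome 2 at 71 to 72 Mb, with 3 of 27 (11.1%, 3.85 to 28.1). The interval of each such bin is wide.

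Genes near these peaks were counted from 7 gene lists. Over all 19974 protein-coding genes 62.4% had a proliferating-only peak outside genes within 100 kb, with a median of 1 such peak a gene. Genes of the senescence-associated secretory phenotype had one in 33 of 36 cases (91.7%, median 3.5 peaks). LIF, which encodes a cytokine, had 8 proliferating-only, 11 partnered and 1 senescent-only peak. In the same order IL6 had 7, 3 and 4, and the chemokine gene CXCL8 had 6, 1 and 1. As background, genes of this list are known to be switched on in senescence. Fibroblast matrix and cytoskeleton genes had one in 31 of 34 cases (91.2%, median 3), led by COL6A3 with 19 and COL5A1 with 11, both collagen genes, then ELN, the elastin gene, with 10.

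Transcription factors of fibroblasts and mesenchyme had one in 35 of 40 cases (87.5%, median 3), with PRRX2 at 13, FOXL1 and MEOX1 at 12 and FOXC2 at 11. Immediate early and MAPK feedback genes had one in 28 of 33 (84.8%, median 4), with DUSP1, a MAPK phosphatase gene, and PHLDA1 at 10 each and the ETS factor genes ETV4 and ETV5 at 9. Replication-dependent histone genes had one in 38 of 48 (79.2%, median 3), where H2AC13, H2AC14, H2AC15 and H2BC13, neighbours whose windows overlap, had 7 each, and the median number of senescent-only peaks was 0. Cell cycle and replication genes had one in 23 of 38 (60.5%, median 1), led by MCM5, a replicative helicase gene, with 11 and RRM2 with 8. Markers of other tissues had the same count, 23 of 38, led by KRT14 with 13. The last 2 lists lay near the 62.4% of all protein-coding genes. Partnered peaks were also more numerous near the other lists, with medians of 2 to 3 against 1 over all genes, and the lists were not matched to all genes in length, gene density or number of peaks.

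Over single genes the most proliferating-only peaks within 100 kb were 27, beside A4GALT and beside RHOU, which has the 5S array next to it. ARFGAP3, NBPF1 and SCARB1 had 21 each, PUM2, an RNA-binding repressor gene, had 20 and COL6A3 had 19. CDKN1A, which encodes the CDK inhibitor p21, had 16 proliferating-only, 6 partnered and 3 senescent-only peaks, and SRSF3, a splicing factor gene close to it whose window overlaps, also had 16 proliferating-only peaks. CLIC4 had 16 proliferating-only and no senescent-only peak.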

How the data were processed

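MapR libraries of IMR90 cells were sequenced by the authors, who deposited for each state a list of peak positions with a score. Its scale is unknown, and its lowest value is 10. The submitters' processing notes name GRCh38 as the build and MACS2 2.2.7.1, Bowtie2 2.4.5 and FastQC 0.11.9 as tools; for settings, control library, read filters and depth the sources used here give nothing. Of 59098 RefSeq entries (GRCh38.p14) on chromosomes 1 to 22 and X, 19974 were protein-coding and 18177 lncRNA genes.

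Overlaps, distances, runs and counts were computed with Python 3.11.15, numpy 2.4.6, pandas 2.3.3 and scipy 1.17.1, and the interval functions were tested on simulated data. Shares carry 95% Wilson intervals, differences of shares Newcombe intervals and medians order-statistic intervals. No test between states was made. The regions named are the 10 highest-scoring, 5 widest and 5 farthest from genes, the 5 largest runs, up to 5 by score for each other gene class, up to 4 genes a list, and 3 on each side of the 1000 bp limit. Some genes that this rule takes are not reported here. The bins, gaps and other single genes were chosen after their values were seen. Members and lists were chosen with earlier results of these data known. The alternatives were other score, length, overlap and gene limits, merged peaks and the senescent list alone.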

Additional observations from a re-analysis of the deposited data

How the results depend on the processing

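Depth is unknown, and the lists differ in number and width of peaks, so the number of proliferating-only peaks outside genes depended on how the lists were set against each other. It was 13332, and 4150 among proliferating peaks at or above the median score, 2633 at equal covered length (40404 proliferating peaks) and 693 with equal numbers of peaks (9727 a list). Under these 3 settings, in that order, the percent without a partner was 37.7, 32.2 and 52.7, the median width 474, 498 and 891 bp, the median score 27, 31 and 57, and the percent with another peak within 10 kb 57.6, 51.2 and 25.3. A gene lay within 10 kb of 44.4% under the first 2, and the excess of sparse over dense gene neighbourhoods was 21.3 points with lists of like covered length and 23.6 with like numbers. Requiring 50% of both peaks for a partner gave 76.0% without one, a width of 426 bp, a score of 19, 47.3% near a gene, 77.6% near a peak and 7.94 points. Requiring no other peak within 1000 bp gave 44.3%, 44.0%, 72.3% and 22.04 points (without a partner, near a gene, near a peak, sparse over dense). Merging peaks gave 52.2%, 391 bp, 43.1% near a gene and 67.9% near a peak. Beyond 5000 bp from genes, 25.3% lay within 10 kb of one and 71.3% near a peak, and with every gene class counted as a gene 54.3% lay near one, both by construction in part. With scores over 30 alone, an alternative chosen after seeing the data, sparse exceeded dense by 22.5 points. The signed difference between sparse and dense gene neighbourhoods stayed positive under each alternative run; the comparisons with partnered and neighbouring peaks were not rerun. Leaving out the dense bins, or using the senescent list alone, moved none of these values beyond its interval. No paired analysis was possible because each state has 1 library.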
